A study of Sus scrofa with 32 samples.

Results

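Trimethylation of histone H3 at lysine 27 (H3K27me3) was compared between pig muscle satellite cells after 60 h of differentiation under SGC-CBP30 (CBP 60 h) and the same kind of cells at 0 h, at the end of proliferation under the compound (CBP 0 h). The libraries were those whose titles carry CBP_60h or CBP_0h in the H3K27me3 assay, 2 of each, so 4 of the 32 samples of the series were compared and 24 samples had a peak list. Both groups had received SGC-CBP30, written in the labels as 5 uM/ml, a unit whose meaning is unclear, for 48 h in proliferation and, at 60 h, for 60 h in differentiation. The WT libraries, 2 at 60 h and 2 at 0 h, came from untreated cells and were set beside these groups or used to test a difference from them. The satellite cells were pig (Sus scrofa), although a cell line field and the growth protocol name C3H cells in RPMI, and the treatment field gives proliferation for 60 h samples too. Nothing states that the paired libraries of a group came from separate cultures, so the p-values measure only the spread between these libraries, which may be technical.

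H3K27me3 is laid down by Polycomb repressive complex 2, whose catalytic subunit is EZH2 or EZH1, and it is found over the promoters and bodies of silenced genes, often as wide domains over developmental regulators such as the HOX clusters. Polycomb repressive complex 1, which holds CBX and PCGF subunits, binds the mark. SGC-CBP30 occupies the bromodomains of CBP and p300, a pair of acetyltransferases, whose acetylation of the same lysine cannot coexist with its methylation on one histone tail. Satellite cells are the stem cells of skeletal muscle, marked by PAX7; they proliferate as myoblasts, and MYOD1 and MYOG drive their fusion into fibres. CUT&Tag, the assay used, directs a transposase to the antibody-bound mark. It gives the sum over all cells of a sample, so fewer cells with the mark and less mark per cell cannot be told apart.

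The cell type was checked by H3K4me3, a mark of active promoters, in the same groups. Within 5 kb of the ends of 7 satellite cell and myoblast markers, all 7 carried H3K4me3 in both CBP 60 h libraries and 6 in both CBP 0 h libraries; MYOD1 had 3.42 and 3.29 kb at 60 h and was listed at 0 in both 0 h libraries. Of 7 fibroblast markers, 5 carried H3K4me3 in all 4 libraries, with summed lengths of 20.6 and 18.7 kb at 60 h and 10.9 and 10.6 kb at 0 h. The 6 endothelial markers found were at 0 in all 4. The summed length of the myoblast list was 25.2 and 25.6 kb at 60 h and 13.5 and 13.3 kb at 0 h. H3K4me3 covered 27.6 and 27.5 Mb of the genome in all at 60 h, against 17.3 and 17.4 Mb at 0 h. For 8 immune, 6 adipocyte and 6 smooth muscle markers, H3K4me3 lay on 2, 3 and 4 in both 60 h libraries and on 1, 2 and 3 in both 0 h libraries. The summed length of the smooth muscle list was 8.98 and 7.8 kb at 60 h, against 1.87 and 1.88 kb at 0 h. The part of other cell types in the H3K27me3 results was not tested. No batch is labelled, and the number of reads per library is unknown, so no counting interval could be given.

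H3K27me3 peaks were shorter and covered less of the genome at 60 h. The CBP 60 h lists held 13258 and 12336 peaks, and the CBP 0 h lists 19317 and 14723. They covered 10.4 and 9.42 Mb at 60 h, against 34.7 and 25.1 Mb at 0 h. The mean was 9.89 ± 0.667 Mb at 60 h and 29.9 ± 6.75 Mb at 0 h (SD, n = 2 each), a ratio of 0.331, and the groups did not overlap. With 2 libraries against 2, the exact two-sided permutation test cannot go below p = 0.33, which is the value it gave here and for peak number and median width.

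Peak widths were lower at 60 h across their range. The median peak was 576 and 571 bp wide at 60 h, against 873 and 840 bp at 0 h, and the 90th percentile was 1496 and 1447 bp at 60 h, against 4083 and 3835 bp at 0 h. The widest peak was 8317 and 6163 bp at 60 h, against 37800 and 38669 bp at 0 h. Peaks of 3 kb or more numbered 159 and 108 at 60 h and 2904 and 2074 at 0 h, where they held 54.1% and 51.8% of the listed bases, against 5.64% and 4.29% at 60 h. No peak reached 10 kb at 60 h, while 386 and 269 did at 0 h. Joining peaks within 3 kb of each other left 9304 and 8842 domains at 60 h and 10502 and 8418 at 0 h, numbers that overlapped between the groups, but 16.3 and 14.7 Mb at 60 h against 46.4 and 33.3 Mb at 0 h.

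**Figure D1:**
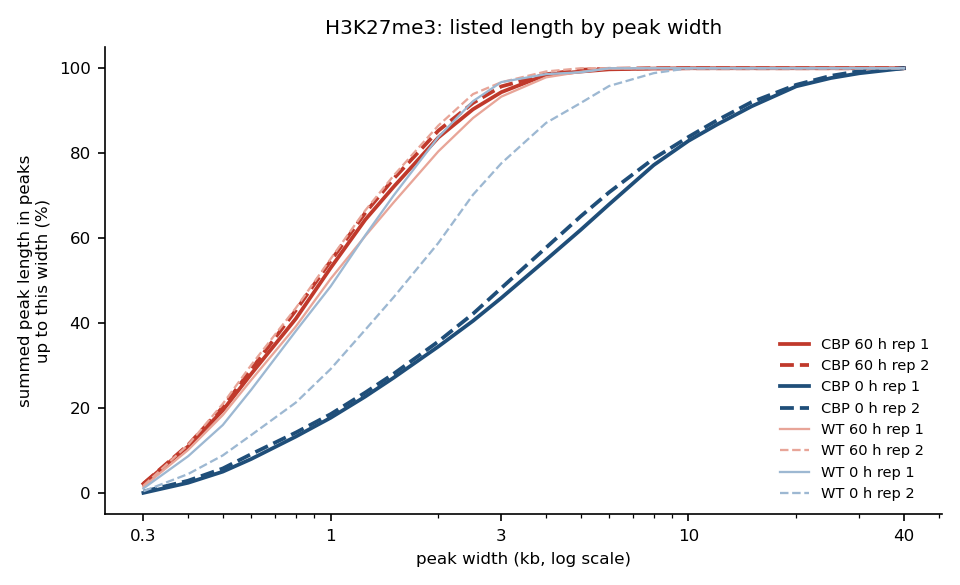
Share of the summed H3K27me3 peak length (%, vertical axis) in peaks up to a given width (kb, log axis), 1 line per library. In both CBP 0 h libraries over 50% of the length lay in peaks of 3 kb or more, against 5.64% and 4.29% in the CBP 60 h libraries, whose lines lie near those of both WT 60 h libraries.

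The CBP 0 h libraries were the pair that stood apart from the other H3K27me3 libraries. Median widths were 588 and 566 bp in WT 60 h and 629.5 and 805.5 bp in WT 0 h libraries, and no WT peak reached 10 kb. The WT lists held 8922 and 6174 peaks (7.26 and 4.67 Mb) at 60 h and 1338 and 2660 peaks (1.11 and 3.12 Mb) at 0 h. Covered length at 60 h was thus 0.331 times that at 0 h under SGC-CBP30 and 2.82 times that at 0 h without it. Peaks with a deposited −log10 q of at least 5 numbered 24 and 18 in CBP 60 h lists, against 2441 and 1233 in CBP 0 h lists. Since both libraries of the 0 h group differ in this way, no result below can be given without them, and the part of read depth or background in the lists was not tested.

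Covered length was also lower at 60 h with lists of equal length. When every list was reduced to its 12336 strongest peaks, the lists covered 9.84 and 9.42 Mb at 60 h, against 29.6 and 23.7 Mb at 0 h. The mean was 9.63 ± 0.295 Mb at 60 h and 26.6 ± 4.19 Mb at 0 h (SD, n = 2 each), a ratio of 0.362. The median width was then 585 and 571 bp at 60 h, against 1301.5 and 1002 bp at 0 h. With 1338 peaks from each of the 8 H3K27me3 lists, the covered length was 1.32 and 1.27 Mb in CBP 60 h libraries and 9.77 and 8.47 Mb in CBP 0 h libraries, a ratio of 0.142. The same reduction gave 1.44 and 1.23 Mb in WT 60 h and 1.11 and 2.08 Mb in WT 0 h libraries, which overlapped.

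Wide domains of the 0 h cells were still marked at 60 h, but over a small part of their length. The 833 domains of 10 kb or more in CBP 0 h replicate 2 had 17.5% and 16.0% of their bases listed in the CBP 60 h libraries, against 79.3% in CBP 0 h replicate 1. At least 1 listed base lay in 92.9% and 92.0% of these domains at 60 h, against 100% in the other 0 h library. The 1225 such domains of CBP 0 h replicate 1 had 16.1% and 14.6% of their bases listed at 60 h, against 57.8% in CBP 0 h replicate 2. Narrower domains had similar shares at 60 h: for domains under 1 kb of CBP 0 h replicate 2 they were 17.1% and 15.6%, against 65.1% in the other 0 h library. The reverse did not hold: domains of 10 kb or more of CBP 60 h replicate 1 (141) had 79.1% and 67.1% of their bases listed in the CBP 0 h libraries. In CBP 60 h replicate 2 only 34.1% of these bases were listed. Joined domains include the gaps between peaks.

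**Figure D2:**
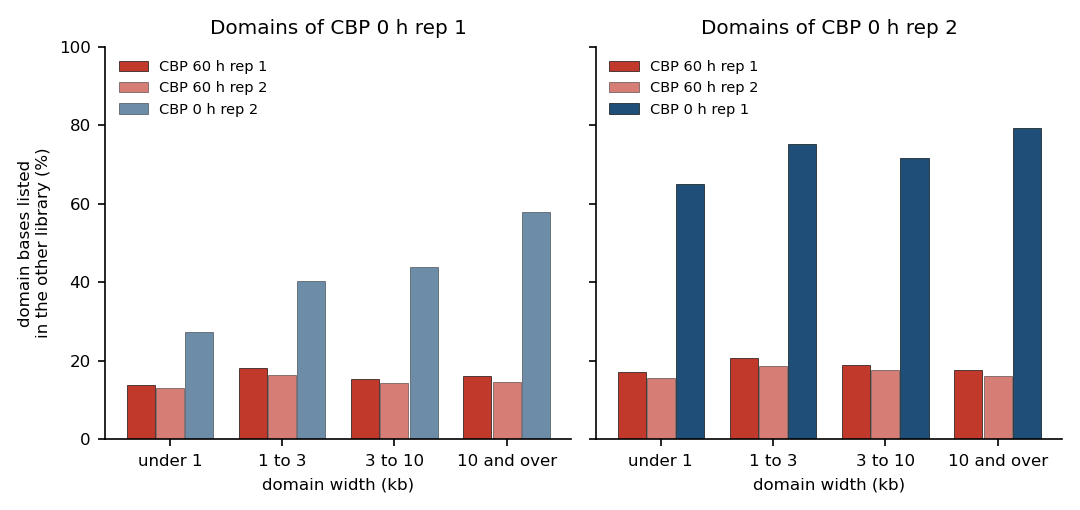
Share of the bases (%, vertical axis) of H3K27me3 domains (peaks joined within 3 kb) of each CBP 0 h library that is listed in both CBP 60 h libraries and in the other CBP 0 h library, by domain width (kb). In domains of 10 kb or more of replicate 2 the bars stand at 17.5% and 16.0% for CBP 60 h and at 79.3% for CBP 0 h.

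The bases that were listed at 60 h lay along the whole length of these domains. In the 833 domains of CBP 0 h replicate 2, each divided into 10 equal steps, the middle 2 steps had 18.4% and 16.7% of their bases listed in the CBP 60 h libraries and the outer 2 steps 16.0% and 14.9%. The other 0 h library had 83.0% in the middle and 73.8% in the outer steps. In the 394 regions of 10 kb or more that all 4 libraries shared, the mean number of peaks was 3.6 and 3.4 at 60 h, against 1.28 and 1.90 at 0 h. No 60 h peak reached 10 kb, so this width limit favours regions with long 0 h peaks, and the counts are a description. In the 1834 shared regions under 3 kb the means were 1.05 and 1.05 at 60 h and 1.03 and 1.04 at 0 h.

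Merging the 4 lists gave 26835 regions, of which 4096 (15.3%) held a peak in all 4 libraries (kept), 5025 (18.7%) in both 0 h and neither 60 h library (lost), and 1807 (6.73%) in both 60 h and neither 0 h library (gained). The other regions were listed in 1 library of at least 1 group. Kept regions were the widest, with a median of 3362 bp, of which a median of 1103 and 1025 bp was listed at 60 h and 3049 and 2386 bp at 0 h. Lost regions had a median width of 1114 bp and gained regions 716 bp, and no gained region exceeded 3216 bp. A kept region joins peaks of all 4 lists and a gained region 60 h peaks only, so this order follows in part from the merging. With lists of equal length the counts were 3660 kept, 3204 lost and 2179 gained of 21546, so the excess of lost over gained regions was smaller there. With lists reduced to equal covered length it turned round, to 78 lost and 5393 gained; these lists held 11639 and 12336 peaks at 60 h and 1269 and 1596 at 0 h.

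The WT lists did not enter these classes. Kept regions held a peak in 67.6% and 57.1% of cases in the WT 60 h libraries and in 18.7% and 31.3% in the WT 0 h libraries. For lost regions the shares were 15.7% and 9.73% in WT 60 h and 0.736% and 2.95% in WT 0 h. For gained regions they were 19.1% and 11.5% in WT 60 h and 0% in both WT 0 h libraries. Kept regions also lay near genes more often: 49.5% touched the 5 kb on either side of a gene end, against 28.1% of lost and 20.8% of gained regions. Wider regions have more room to touch such a window or to hold a WT peak.

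The widest kept region (14:14854864-14894092, Sscrofa11.1, 39.2 kb) covers the start of the interval of GATA4, a factor of heart and endoderm development. At 60 h it held 7 and 5 peaks with 4.36 and 4.22 kb, against 5 peaks and 1 peak with 36.0 and 38.7 kb at 0 h. In the HOXB cluster, a region of 37.8 kb (12:24830779-24868578) near HOXB3, HOXB5, HOXB6, HOXB7 and HOXB8 had 0.901 and 0.788 kb at 60 h, against 37.8 and 36.2 kb at 0 h. Its neighbour near HOXB7 and HOXB8 (12:24869255-24905919) had 1.86 and 0.676 kb at 60 h, against 36.5 and 35.6 kb at 0 h. Beside DMBX1, a homeobox gene of the midbrain (6:164978346-165014153), more was left, with 9.56 and 8.88 kb in 9 and 10 peaks at 60 h, against 35.8 and 35.4 kb in 1 peak each at 0 h.

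The widest lost region (11:5293276-5318667, 25.4 kb) spans PDX1, a factor of pancreas development. It had no listed base at 60 h and 25.3 and 22.2 kb at 0 h. Others among the 5 widest were a stretch beside HOXB3 (12:24813654-24830119, 16.5 and 14.3 kb at 0 h) and a region beside TWIST1, a mesodermal bHLH factor (9:88274733-88286010, 9.89 and 11.3 kb at 0 h). Gained regions were short. The one with a named gene among the 5 widest lies in CACNG5, a calcium channel subunit gene (12:13288606-13291571), and had 2.97 and 0.46 kb at 60 h and none at 0 h. Within 5 kb of its ends, CACNG5 had 5.62 and 2.39 kb at 60 h and 1.07 and 0.502 kb at 0 h. It was not called on the full lists (limma, adjusted p = 0.0566).

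**Figure D3:**
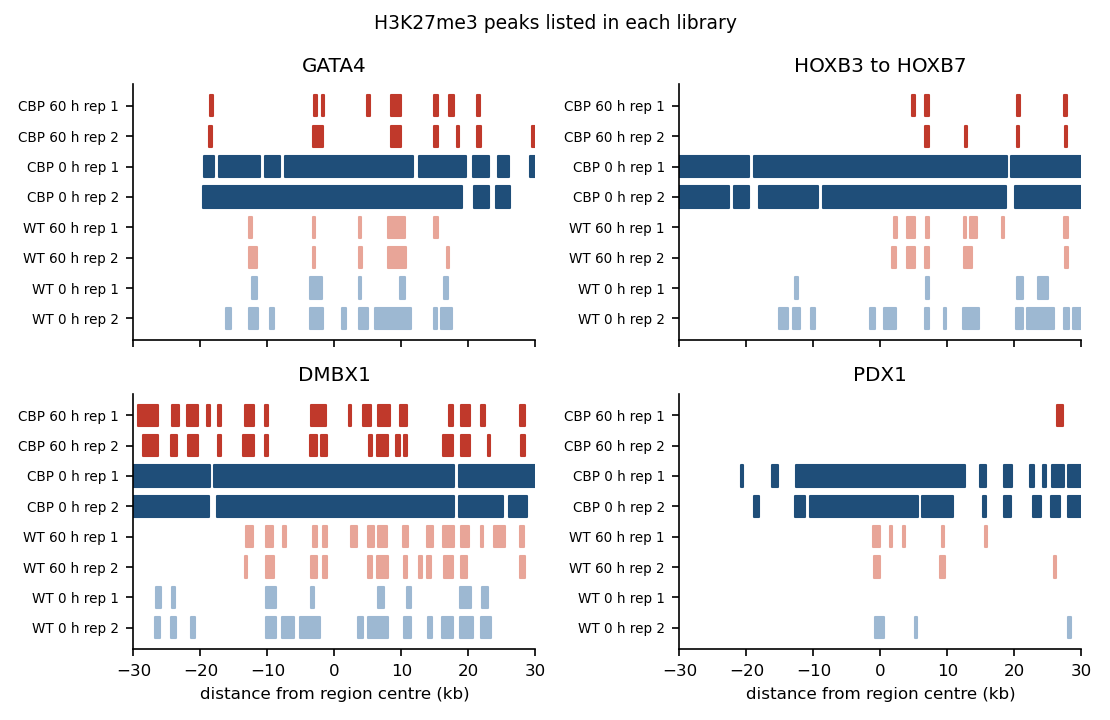
Listed H3K27me3 peaks (bars) in each of the 8 libraries, by distance (kb) from the centre of the widest kept region (GATA4), of kept regions in the HOXB cluster and beside DMBX1, and of the widest lost region (PDX1). Near-continuous bars at CBP 0 h face short separate bars at CBP 60 h, which leave 4.36 and 4.22 kb of the GATA4 region and none of the PDX1 region.

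For each of 19550 placed protein-coding genes, the peak length inside the windows of 5 kb around its 2 ends was taken, since strand and so the promoter end are not known from the gene table. Of these genes 4382 had a listed base in any of the 4 libraries, 77.6% had none, and 3511 had at least 200 bp in at least 2 libraries and were tested with limma on log2(bp + 500). At a Benjamini-Hochberg adjusted p below 0.05, 1826 genes (52%) were lower and 204 (5.81%) higher at 60 h. The lengths of both 60 h libraries were below those of both 0 h libraries for 2543 genes (72.4%) and above them for 332 (9.46%). The median log2 change was -1.20. Of the genes lower, 549 had no listed base in either 60 h library, and of those higher, 186 had none in either 0 h library. Such genes had to pass the filter through 1 group and so had to differ, and a fold for them would only reflect the 500 bp added, so neither a fold nor a p is given for them, and their calls are a description. Among the 2685 genes with a base in both groups, 1277 were lower and 18 higher, with a median log2 change of -1.10.

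The split between lower and higher genes depended on the scaling. With 12336 peaks per list, 1722 (52.1%) of 3304 genes were lower and 279 (8.44%) higher, and 1654 of the genes lower and 192 of those higher were shared with the full lists. Quantile scaling, which gives all libraries the same distribution of lengths, moved the median log2 change to -0.01 and left 520 genes (14.8%) lower and 574 (16.3%) higher, of which 518 of the lower genes had been lower before. At equal covered length 613 (25.3%) of 2419 genes were lower and 1196 (49.4%) higher. Leaving out CBP 0 h replicate 1 left 344 genes lower and 19 higher, and leaving out CBP 60 h replicate 1 or 2 left none higher in limma and 1084 or 984 lower, with 1601 or 1525 genes at an unadjusted p under 0.05. With lists of equal length, no gene was called without CBP 0 h replicate 1, where 1317 had an unadjusted p under 0.05. These shares are what the counts within gene groups are set beside. The shares and the group counts alike include genes with a base in 1 group alone, which had to differ. Without CBP 0 h replicate 1, the named genes that kept their calls on the full lists did so narrowly. A call lost in that fit therefore does not single a gene out.

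HOX genes set out position along the body axis, and nearly all that were tested fell. Of 38 HOX genes in the gene table, 25 were tested. Of these, 24 were lower and none higher, against 52% lower of all genes. The 25 include 7 with no base at 60 h, which had to be lower, and among all 3511 genes tested 627 had none at 60 h. Under quantile scaling 18 stayed lower, and at equal covered length 17 of 18 were lower and 1 was higher. The 18 with a base in both groups had a median log2 change of -2.74, against -1.10 for all such genes. HOXB8 (12:24865985-24879706) had 0.78 and 0.966 kb at 60 h, against 19.3 and 18.6 kb at 0 h, a log2 change of -3.83 ± 0.14 (SE, adjusted p = 0.00728). HOXC13 (5:19151096-19159008) had 1.86 and 1.77 kb at 60 h, against 17.2 kb in both 0 h libraries (log2 change -2.93 ± 0.11). HOXD13 kept more, with 4.19 and 4.47 kb at 60 h, against 13.1 kb in both 0 h libraries (log2 change -1.50 ± 0.09), and was not called under quantile scaling.

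Within HOXB, neighbouring genes share peaks, so their values are not independent. HOXB5 had 0.234 kb and none at 60 h, against 14.4 and 13.7 kb at 0 h, and HOXB3 had none at 60 h, against 9.34 and 7.86 kb at 0 h. HOXB6 had 0.901 and 0.498 kb at 60 h, against 13.8 kb in both 0 h libraries, and HOXB7 0.487 and 0.788 kb at 60 h, against 12.8 and 12.3 kb at 0 h. HOXA11 lost its call with any library left out; it had 0.314 and 0.561 kb at 60 h, against 2.41 and 1.55 kb at 0 h, was called lower (adjusted p = 0.0346) and was higher at equal covered length. HOXC10 had no H3K27me3 base in any of the 4 libraries, while its H3K4me3 covered 11.7 and 11 kb at 60 h and 8.60 and 9.64 kb at 0 h. HOXC4 was the 1 tested member not called, named after its values were seen, with 0.201 and 0.225 kb at 60 h and 4.8 and 1.33 kb at 0 h (adjusted p = 0.0558).

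Homeobox factors outside the HOX clusters, which pattern brain, limb and gut, followed the same direction on the full lists: 81 of 89 tested were lower and 2 higher. Under quantile scaling 28 were lower and 5 higher, and at equal covered length 68 of 87 were lower and 8 higher, where 25.3% of all genes were lower. The 84 with a base in both groups had a median log2 change of -1.94. PDX1 (11:5303609-5309063) was listed at 0 in both 60 h libraries, against 15.5 and 14.8 kb at 0 h. UNCX, a factor of somites and neurons, was at 0 in both 60 h libraries, against 11.5 and 11.3 kb at 0 h. MSX2, a limb and skull factor, had none and 0.315 kb at 60 h, against 15.1 and 13.6 kb at 0 h.

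Other homeobox genes kept part of a wide domain. SIX3, a forebrain and eye factor, had 2.46 and 2.85 kb at 60 h, against 13.0 and 12.8 kb at 0 h (log2 change -2.09 ± 0.12, adjusted p = 0.00728), and was not called under quantile scaling or at equal covered length. PITX1, a hind-limb factor, had 3.9 and 2.15 kb at 60 h, against 19.3 kb in both 0 h libraries. NKX2-5, a heart factor, had 6.23 and 4.57 kb at 60 h, against 13.2 kb in both 0 h libraries (log2 change -1.23 ± 0.18). It narrowly lost its call without CBP 0 h replicate 1. POU3F2, a neural factor, had 6.30 and 6.73 kb at 60 h, against 15.1 and 16.9 kb at 0 h. NKX2-5, POU3F2 and DMBX1 lay above 0 under quantile scaling (log2 0.22, 0.16 and 0.064), with no call there. GBX2 had 2.21 and 3.84 kb at 60 h and 6.46 and 2.25 kb at 0 h; its groups overlapped and it was not called (adjusted p = 0.650). EN1 had no H3K27me3 base in any of the 4 libraries. The 2 higher members, ISL2 and ALX4, named after their values were seen, had 0.435 and 0.884 kb and 1.04 and 1.20 kb at 60 h and none at 0 h.

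T-box, PAX, SOX, FOX and GATA factors were lower in 49 of 55 tested genes and higher in 2, with 20 lower and 4 higher under quantile scaling and 40 lower and 2 higher of 50 at equal covered length. TBX5, a forelimb and heart factor, had no base at 60 h, against 10.0 kb in both 0 h libraries, and TBX2 had none at 60 h, against 15 and 11 kb at 0 h. GATA4 (14:14858470-14938156) had 0.771 and 1.71 kb at 60 h, against 8.66 and 8.61 kb at 0 h (log2 change -2.45 ± 0.33, limma, adjusted p = 0.0124). It narrowly lost its call without CBP 0 h replicate 1. SOX2, a neural and pluripotency factor, had 1.27 and 0.775 kb at 60 h, against 6.61 and 8.80 kb at 0 h (log2 change -2.44 ± 0.28). PAX2, a kidney factor, had 3.17 and 4.99 kb at 60 h and the whole window of 20 kb in both 0 h libraries. SOX7 kept 5.99 and 5.22 kb at 60 h, against 15.3 and 14.0 kb at 0 h, and lay above 0 under quantile scaling (log2 0.11).

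Factors of the neural and other lineages (bHLH, zinc finger and others) were lower in 53 of 61 tested genes and higher in 3, with 24 lower and 4 higher under quantile scaling and 38 lower and 7 higher of 52 at equal covered length. OLIG2, an oligodendrocyte factor, had 2.35 and 3.93 kb at 60 h, against 15.2 and 15.3 kb at 0 h. TFAP2A, a neural crest factor, had 2.48 and 2.75 kb at 60 h, against 18.2 and 17.4 kb at 0 h (log2 change -2.56 ± 0.11). BHLHE23 had 1.98 and 2.26 kb at 60 h, against 19.4 and 17.0 kb at 0 h, and LIN28A, an RNA-binding protein of stem cells, 0.934 and 0.436 kb at 60 h, against 7.48 and 7.44 kb at 0 h. LMO1 had 6.5 and 6.69 kb at 60 h and 8.60 and 7.77 kb at 0 h (adjusted p = 0.0870), was not called there, and was called higher under quantile scaling. HAND2, OSR1 and SIM2, the 3 higher members, named after their values were seen, had no base at 0 h and 0.446 and 0.43 kb, 1.42 and 1.89 kb, and 0.439 and 0.632 kb at 60 h.

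**Figure D4:**
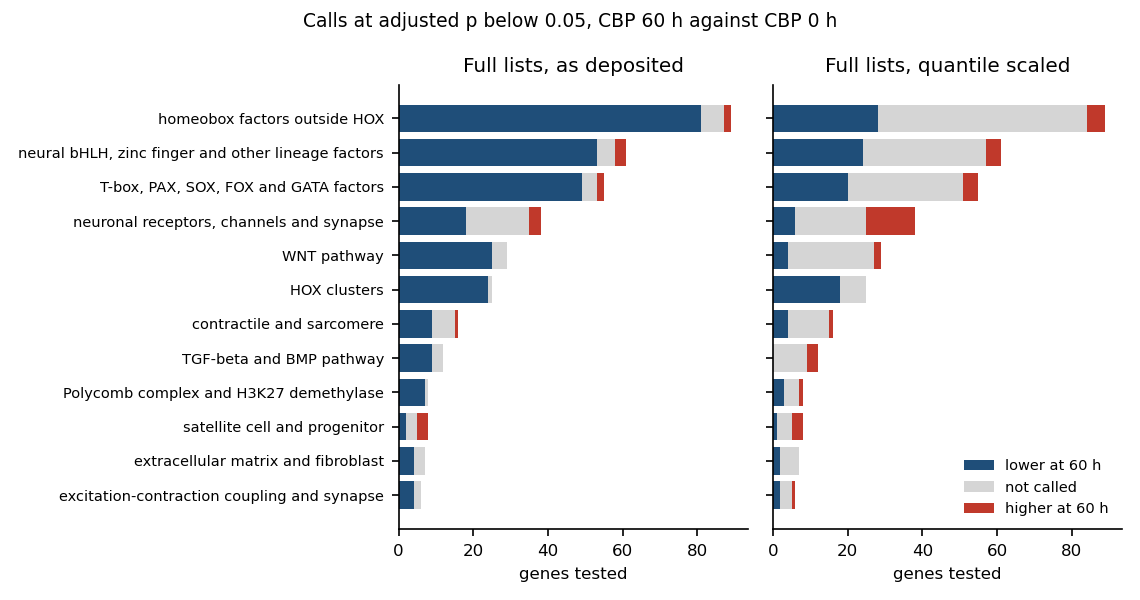
Number of tested genes (horizontal axis) of each gene group called lower (left segment), not called (middle) or higher (right segment) at CBP 60 h than at CBP 0 h, on the full lists (left panel) and after quantile scaling (right panel); groups with under 6 tested genes are left out. HOX genes were lower in 24 of 25 on the full lists and in 18 after scaling, while 25 WNT pathway genes lower on the full lists were 4 after scaling.

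Many muscle genes carried no H3K27me3 in either group, as did 77.6% of all genes in the table. Of 26 myogenic factors and partners in the gene table, 23 had no listed base in any of the 4 libraries, MYOD1, MYOG, MYF5, MYF6 and MEF2C among them. Of the 3 tested, 2 were lower and 1 higher, on the full lists and under quantile scaling alike. MYMK, the membrane protein that starts myoblast fusion (1:273101674-273111721), had 0.323 kb and none at 60 h, against 7.85 and 7.46 kb at 0 h (log2 change -3.67 ± 0.33, adjusted p = 0.00859). It was called lower with each library left out in turn, under quantile scaling and at equal covered length. Its H3K4me3 covered 2.88 and 3.27 kb at 60 h and was listed at 0 in both 0 h libraries. NPNT had none at 60 h, against 2.06 and 0.699 kb at 0 h. RBFOX1, a splicing factor, had 0.526 and 0.385 kb at 60 h and none at 0 h.

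Of 27 satellite cell and progenitor genes, 19 had no base in any library, and 8 were tested: 2 were lower and 3 higher. The 3 higher had no base at 0 h and 1 of the lower, MEOX2, none at 60 h, so these had to differ. Under quantile scaling 1 was lower and 3 higher, and at equal covered length none was lower and 3 of 4 were higher. The last 3 were not the same genes: PAX7 was not tested there, and SDC3, not called on the full lists, was called higher. PAX7 (6:77160827-77268626) had 1.19 and 0.455 kb at 60 h and was listed at 0 in both 0 h libraries. It was the 1 member of the 7 satellite cell markers with any H3K27me3 base. LBX1, a factor of migrating muscle precursors, had 1.19 and 0.985 kb at 60 h and none at 0 h. CALCR, which keeps satellite cells quiescent in mouse and was named after its values were seen, had 0.362 and 0.399 kb at 60 h and none at 0 h. PAX3 had 0.426 kb and none at 60 h, against 2.5 and 1.67 kb at 0 h (adjusted p = 0.0336), lost its call with any library left out, and lay above 0 with a 2 kb window. MEOX2, a mesodermal homeobox gene, had none at 60 h, against 2.61 and 2.42 kb at 0 h.

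Among 55 contractile and sarcomere genes, 37 had no base and 16 were tested. Of these, 9 were lower and 1 higher, near the 52% and 5.81% of all genes tested. Among the 16, 6 had no base at 60 h and 1 none at 0 h. The counts were 4 and 1 under quantile scaling and 2 and 4 of 6 at equal covered length. TNNT2, cardiac troponin T, had none and 0.29 kb at 60 h, against 11.7 and 4.50 kb at 0 h (adjusted p = 0.0162), and lost its call without CBP 60 h replicate 1 or CBP 0 h replicate 1. MYL4, an embryonic myosin light chain, had 1.12 and 1.73 kb at 60 h, against 10.8 and 11.3 kb at 0 h (log2 change -2.60 ± 0.22), and was called higher at equal covered length. ACTA1, skeletal actin, had 1.70 kb and none at 60 h and 7.35 and 6.78 kb at 0 h; the groups did not overlap, but it was not called (adjusted p = 0.0553). TRIM54 had 2.52 and 3.13 kb at 60 h, against 8.35 and 6.21 kb at 0 h, and was called without CBP 0 h replicate 2 alone among the fits with a library left out. MYH7, the slow and cardiac myosin heavy chain (7:75650841-75672908), had 2.52 and 2.32 kb at 60 h and none at 0 h. TTN had no base in any of the 4 libraries.

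Of 33 genes of excitation-contraction coupling and the synapse, 6 were tested: 4 were lower and none higher, with 2 lower and 1 higher under quantile scaling and 1 each of 3 at equal covered length. CACNA1S, the voltage sensor of skeletal muscle, had 1.83 and 1.53 kb at 60 h, against 6.78 and 6.82 kb at 0 h (log2 change -1.75 ± 0.16). SRL, a sarcoplasmic reticulum protein, had none at 60 h, against 6.77 and 4.63 kb at 0 h. CACNG6 had 3.31 and 3.63 kb at 60 h, against 7.37 and 5.87 kb at 0 h; it was called lower on the full lists, lost that call with any library left out, and was called higher under quantile scaling. Of 20 CDK inhibitors and cell cycle exit genes, 17 had no base and 3 were tested, 1 of them lower. CDKN2B, an inhibitor of CDK4 and CDK6, had none at 60 h, against 1.74 and 1.76 kb at 0 h. CDKN1C had none at 60 h and 4.78 and 0.541 kb at 0 h, and CDKN1A had no base in any library.

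**Figure D5:**
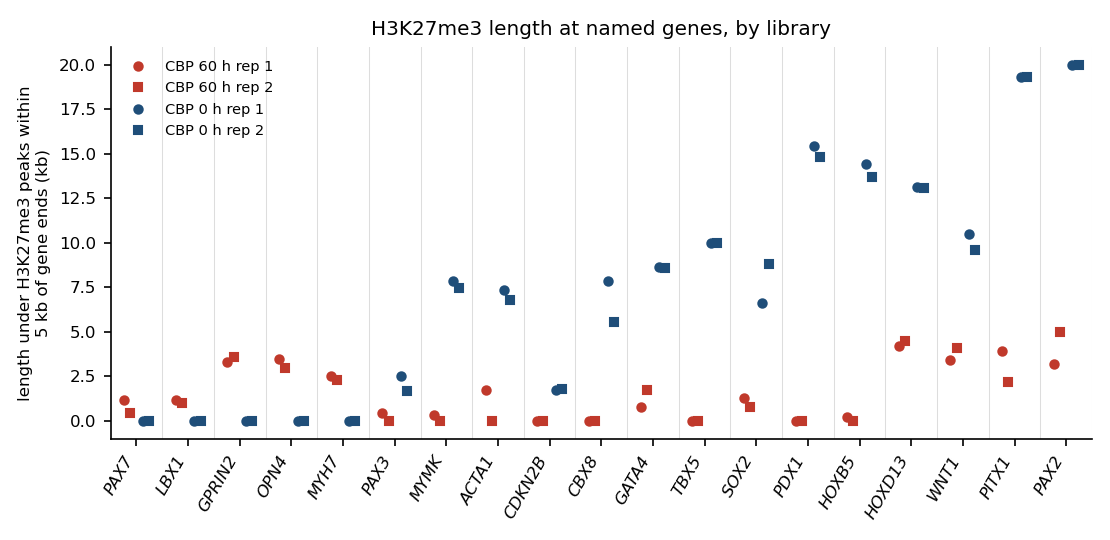
Length under H3K27me3 peaks (kb, vertical axis) within 5 kb of the ends of 19 named genes, 1 point per library, CBP 60 h left of CBP 0 h for each gene. PAX7, LBX1, GPRIN2, OPN4 and MYH7 have points above 0 at CBP 60 h alone, and the other 14 genes are longer in both CBP 0 h libraries.

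Of 34 genes of the Polycomb machinery, 26 had no base in any library, near the share of all genes, EZH2 and EED among them. Of the 8 tested, 7 were lower and none higher, with 3 lower and 1 higher under quantile scaling and 4 and 1 of 6 at equal covered length. CBX8 had none at 60 h, against 7.85 and 5.54 kb at 0 h. CBX7 had 1.47 and 1.34 kb at 60 h, against 4.02 and 3.58 kb at 0 h (log2 change -1.17 ± 0.19, adjusted p = 0.0153), lost its call with any library left out, and lay above 0 under quantile scaling and at equal covered length (log2 0.19 and 0.17). PCGF1 had 1.15 and 0.491 kb at 60 h, against 4.68 and 3.47 kb at 0 h, and kept its call only without CBP 60 h replicate 1 among the 4 fits with a library left out.

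WNT ligands, receptors and modulators were mostly lower on the full lists. Of 29 WNT pathway genes tested, 25 were lower and none higher, but 4 lower and 2 higher under quantile scaling, and 14 lower and 7 higher of 26 at equal covered length. WNT1 had 3.39 and 4.07 kb at 60 h, against 10.5 and 9.58 kb at 0 h (log2 change -1.32 ± 0.14, adjusted p = 0.00988). WNT7B had 4.93 and 4.20 kb at 60 h, against 16.9 and 13.1 kb at 0 h, WNT10A 5.55 and 6.96 kb at 60 h, against 16.1 and 14.6 kb at 0 h, and WNT11 6.47 and 4.96 kb at 60 h, against 14.4 and 10.1 kb at 0 h. WNT1, WNT10A and WNT11 lay above 0 under quantile scaling (log2 0.16, 0.13 and 0.41), with no call there. WNT1 and WNT10A narrowly lost their calls without CBP 0 h replicate 1. WNT11 lost its call in 3 of the 4 fits with a library left out.

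Of 12 TGF-beta and BMP pathway genes tested, 9 were lower and none higher on the full lists, none lower and 3 higher under quantile scaling, and 5 lower and 3 higher of 11 at equal covered length. GDF7, a BMP ligand, kept the most, with 7.78 and 7.72 kb at 60 h, against 15.2 and 14.3 kb at 0 h (log2 change -0.89 ± 0.08), and was called higher under quantile scaling (log2 0.46). GDF6 had 5.12 and 4.17 kb at 60 h, against 13.3 and 12.5 kb at 0 h, and lay above 0 under that scaling (log2 0.053). BMP3 had 2.0 and 3.15 kb at 60 h, against 9.83 and 10.2 kb at 0 h. GDF7 and BMP3 narrowly lost their calls without CBP 0 h replicate 1. BMP4, FST and MSTN, which inhibits muscle growth, had no base in any of the 4 libraries.

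Neuronal receptor, channel and synapse genes had counts near those of all genes on the full lists, where 52% were lower and 5.81% higher. Of 38 tested, 18 were lower and 3 higher. Under quantile scaling 6 were lower and 13 higher, the latter a larger share than the 16.3% of all genes. At equal covered length 9 were lower and 20 higher of 37, where 49.4% of all genes were higher. SLC17A7, a glutamate transporter, had 3.11 and 2.18 kb at 60 h, against 14.6 and 13.6 kb at 0 h (log2 change -2.23 ± 0.20). GRIN2B, KCNB2 and GFRA1, the 3 higher members, named after their values were seen, had no base at 0 h and 0.479 and 0.621 kb, 0.322 and 0.804 kb, and 2.06 and 1.45 kb at 60 h.

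Of 38 matrix and fibroblast genes, 31 had no base, near the share of all genes, and 7 were tested. Of these, 4 were lower, near the 52% of all genes tested, and none higher (2 and none under quantile scaling, 1 and none of 2 at equal covered length). LOXL1, a collagen crosslinking enzyme, had none at 60 h, against 3.57 and 2.40 kb at 0 h. Of 73 cytoplasmic ribosomal protein genes, active in every cell, 69 had no base and 4 were tested, 2 of them lower, none under quantile scaling, and 1 higher of 2 at equal covered length. RPL38 had 0.896 and 0.655 kb at 60 h, against 2.98 and 2.58 kb at 0 h, lost its call with any library left out, and was called higher at equal covered length. Summed over markers of other cell types, H3K27me3 length was 2.25 and 2.76 kb at 60 h and 9.30 and 6.25 kb at 0 h for 6 endothelial genes, and 2.13 and 2.51 kb at 60 h and 12.7 and 11.4 kb at 0 h for 8 immune genes.

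The genes with the largest increase were those with no base at 0 h. GPRIN2, a regulator of neurite outgrowth (14:88158942-88160311), had 3.29 and 3.56 kb at 60 h and none at 0 h or in any WT library. OPN4, the light receptor melanopsin, had 3.45 and 2.98 kb at 60 h and none at 0 h or in WT, and its H3K27ac covered 3.57 and 2.06 kb at 60 h and none at 0 h. BLK, a B cell kinase, had 2.26 and 2.76 kb at 60 h and none at 0 h, but 0.747 and 0.303 kb in WT 60 h libraries. ASTN2, a neuronal membrane protein, had 3.36 and 1.81 kb at 60 h and none at 0 h, and 2.39 and 1.49 kb in WT 60 h libraries. LGALS12 and HRASLS5, neighbours whose windows share bases, had 2.12 and 1.94 kb in CBP 60 h replicate 1 and 2.64 kb each in replicate 2. Of the 15 named genes called higher, all but CA10 had no base at 0 h. CA10 had 2.57 and 2.36 kb at 60 h, against 0.508 kb and none at 0 h (adjusted p = 0.0288), and was called without CBP 0 h replicate 1 alone among the fits with a library left out.

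The change over 60 h was next set against that of untreated cells, in a fit of all 8 H3K27me3 libraries. Of 3695 genes tested, the change under SGC-CBP30 was lower than the WT change for 1971 (53.3%) and higher for 143 (3.87%). Of the 1826 genes lower under SGC-CBP30, 1460 were among the 1971. Both fits hold the same change under SGC-CBP30, so much of this overlap is built in. With no base in any WT library, as at HOXB3, the difference is the change under SGC-CBP30 itself. How many such genes enter the counts given here was not determined. With 1338 peaks per list, 584 (43.2%) of 1352 genes were lower and 97 (7.17%) higher, and quantile scaling left 300 lower and 418 higher of 3695. Among HOX genes 18 of 25 differed downwards, among homeobox genes outside HOX 35 of 90, and among WNT pathway genes 17 of 30.

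Single genes show both changes side by side. ARHGEF16 had 0.355 and 0.521 kb in CBP 60 h and 9.55 and 6.10 kb in CBP 0 h, against 5.53 and 2.67 kb in WT 60 h and none in WT 0 h. TBX1 had 6.46 and 6.42 kb in CBP 60 h and 15.4 and 11.7 kb in CBP 0 h, against 7.13 and 2.26 kb in WT 60 h and none in WT 0 h. With no base in WT 0 h, the WT change of both genes rests on the 500 bp added, so no p is given. OLIG2 was not called for the difference (limma, adjusted p = 0.496): it was also shorter in WT at 60 h, with 1.27 and 0.746 kb, against 6.47 and 11.0 kb in WT 0 h. NKX2-5 had 3.08 and 1.55 kb in WT 60 h and 3.57 and 9.71 kb in WT 0 h, and no difference between its changes was detected (adjusted p = 0.980).

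H3K4me3 and H3K27ac, measured in other libraries of the same groups, seldom lay on these regions. H3K4me3 overlapped 7.54% and 7.13% of kept regions in the CBP 60 h libraries and 3.0% and 2.88% in the CBP 0 h libraries. For lost regions the shares were 4.30% and 4.32% at 60 h and 2.19% and 2.17% at 0 h, and for gained regions 1.88% and 1.72% at 60 h and 1.33% and 1.11% at 0 h. The longer H3K4me3 lists at 60 h given above bear on all 3 classes, and wider regions have more room for a peak. Of the 1826 genes with less H3K27me3, 200 (11.0%) had H3K4me3 in both 60 h and neither 0 h library, close to the 9.25% among the 1481 genes not called; 10 had it at 0 h alone. Over all 19550 genes the share with H3K4me3 at 60 h alone was 4.31%. H3K27ac lay near 5.37% of the lower genes in both 60 h libraries and near 2.85% in both 0 h libraries, against 5.27% and 2.5% of the genes not called. Over all genes in the table these shares were 21.1% and 11.6%.

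Some named genes had less H3K27me3 and more H3K4me3 at 60 h, in the muscle lists and outside them. TBX2, TBX5 and MSX2 were among those outside, and the H3K4me3 lists were longer at 60 h as a whole. TNNT2 had 4.07 and 4.13 kb of H3K4me3 at 60 h and none at 0 h, and SRL 4.35 and 5.26 kb at 60 h and 0.752 and 0.785 kb at 0 h. MEOX2 had 3.46 and 3.65 kb of H3K4me3 at 60 h and 0.269 and 0.224 kb at 0 h, and 3.29 and 3.27 kb of H3K27ac at 60 h and none at 0 h. At SIX3 and GBX2, H3K4me3 alone changed the other way. It covered 2.13 and 2.25 kb and 3.22 and 3.17 kb at 0 h, and none at 60 h. H3K27me3 was also lower at 60 h at SIX3 on the full lists, and GBX2 was not called. PAX7 carried H3K4me3 in both groups, 4.89 and 4.42 kb at 60 h and 4.55 and 3.75 kb at 0 h.

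The place of the mark relative to genes was similar on the full lists. The share of covered length within 5 kb of a gene end was 38.7% and 38.8% at 60 h, against 39.4% and 42.4% at 0 h, where such windows hold 12% of the placed genome. The mean was 38.8% ± 0.0334 at 60 h and 40.9% ± 2.07 at 0 h (SD, n = 2 each), with an exact permutation p of 0.33, the smallest possible. With lists of equal length the means were 39.1% ± 0.399 at 60 h and 43.1% ± 0.885 at 0 h. The X chromosome held 0.162% and 0.185% of the covered length at 60 h, against 0.901% and 0.874% at 0 h, and 0.249% and 0.228% in WT 60 h and 0.036% and 0.446% in WT 0 h libraries. Of 59 X-linked genes tested on the full lists, 48 were lower and none higher. Among 3452 autosomal genes tested, 1778 were lower and 204 higher. Only 7.74% of X-linked genes passed the filter, against 18.4% of autosomal genes. X-linked genes were not counted under other scalings.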

How the data were processed

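CUT&Tag libraries were deposited as 1 broad peak list each for H3K27me3 and 1 narrow list each for the other marks. Per the submitters' processing notes, the tools were Trimmomatic and MACS2 2.1.0, on Sscrofa11.1. No source used here names the aligner, the peak calling options or the control library. The authors' deposited columns hold, beside positions and, in narrow lists, a summit offset, a score, a fold enrichment (ratio), and a −log10 p and −log10 q per peak. Positions and widths were compared; −log10 p ranked peaks within a list and −log10 q gave a stricter list. The IgG samples were not analysed here.

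Gene positions came from a RefSeq table of Sscrofa11.1 (19550 placed protein-coding genes). Lengths under peaks within 5 kb of gene ends were tested as log2(bp + 500) with limma 3.58.1 in R 4.3.3 (trended, robust eBayes, Benjamini-Hochberg adjustment over all genes tested, threshold 0.05), for genes with 200 bp in 2 libraries. The fit was tested on simulated data. Group values used exact permutation tests (scipy 1.17.1). The members, lists and rules were chosen with earlier results of these data known. Named genes were the 10 largest called changes each way on the full lists, 5 each way on equal-length lists and against WT, a panel of 36, the 3 longest of each gene list, and genes at the 5 widest regions of each class; others are marked where named, and a few that the rule names are not reported here. Alternatives covered windows, filters, scaling, list length, blocks and left-out libraries.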

Additional observations from a re-analysis of the deposited data

Results flagged for a closer look

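Covered length and peak number changed in opposite directions under SGC-CBP30 and in untreated cells, with both libraries of each group on the same side: at 60 h the covered length was 0.331 times that at 0 h under SGC-CBP30 and 2.82 times that at 0 h in WT, and the peak number 0.752 times and 3.78 times. The difference between these ratios was not tested.

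In the fit of the difference itself over 8 libraries, 1971 genes had a lower and 143 a higher change under SGC-CBP30 than in WT on the full lists, and 584 a lower and 97 a higher change with lists of 1338 peaks.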

How the results depend on the processing

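Covered length was lower at 60 h in each alternative run except equal covered length, which fixes it. Keeping peaks of −log10 q 5 or more, the peak number ratio was 0.0114, the covered length ratio 0.00135 and the median width ratio 0.130. With 2000 peaks per list the covered length ratio was 0.162 and the median width ratio 0.151. With 1338 peaks they were 0.142 and 0.129, and with 12336 peaks the median width ratio was 0.502. At equal covered length the peak number ratio was 8.37, the other direction from the 0.752 of the full lists, and the median width ratio 0.113. Joining peaks within 3 kb gave a peak number ratio of 0.959 and a median width ratio of 0.438. The share of covered length within the window of a gene end was lower at 60 h by 2.13 percentage points, by 0.687 with a 2 kb window and by 4.06 with equal-length lists.

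Genes lower and higher moved as follows on the full lists: 130 higher with a 2 kb window, 93 higher with no filter beyond any base, 520 lower and 574 higher with quantile scaling, 861 lower and 0 higher with a −log10 q of at least 5 (863 at an unadjusted p under 0.05, by limma), 908 lower and 129 higher with 2000 peaks, and 613 lower and 1196 higher at equal covered length. On equal-length lists they were 178 higher with a 2 kb window, 168 higher with no filter, 507 lower and 615 higher with quantile scaling, and the same 908, 129, 613 and 1196 for the last alternatives. For the difference from WT, quantile scaling gave 300 lower and 418 higher on the full lists and 274 lower and 200 higher with 1338 peaks.

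Regions moved too. From the full lists, lost regions numbered 2264 with peaks joined, 1104 with a −log10 q of at least 5, 3204 with equal-length lists, 805 with 2000 peaks and 78 at equal covered length. Gained regions numbered 1 with that q limit, 385 with 2000 peaks and 5393 at equal covered length. Kept regions numbered 620 where 50% of the region had to be covered, 2 with the q limit, 403 with 2000 peaks and 950 at equal covered length. On equal-length lists, 5119 were lost and 540 kept at 50% cover, and 1530 lost with peaks joined.

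With each library left out in turn, genes on the full lists numbered 344 to 1084 lower and 0 to 19 higher, and on equal-length lists 0 to 1068 lower and 0 to 16 higher. No gene was lower on equal-length lists without CBP 0 h replicate 1 (1317 at an unadjusted p under 0.05 in limma). None was higher there or without CBP 60 h replicate 1, nor on the full lists without either CBP 60 h library. The difference from WT gave 1057 to 1900 lower and 6 to 165 higher, and with 1338 peaks 342 to 560 lower and 29 to 98 higher. Lost regions numbered 5796 to 11427 and gained regions 1898 to 4235 on the full lists, and 3872 to 6361 and 2398 to 4695 on equal-length lists, where a group of 1 library sets a weaker condition. For the difference from WT, the fits with a library left out and, with 1338 peaks, those with quantile scaling or the block were chosen after seeing the data. The lone library of a group was assumed to vary like the others.

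Deviations of same-numbered libraries from their group means were nearly uncorrelated over genes (0.025 on the full and -0.011 on the equal-length lists). With 2 libraries per group this cannot decide whether the numbers pair them, which no label states. With the replicate number as a block, 1996 genes were lower and 227 higher on the full lists and 1715 and 291 on equal-length lists; the difference from WT gave 1884 lower and 133 higher, and 540 and 93 with 1338 peaks.

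Named genes whose log2 change was negative on the full lists and positive under an alternative, with a call in either, were, under quantile scaling, LMO1 (1.12), WNT1 (0.16), NKX2-5 (0.22), CBX7 (0.19), DMBX1 (0.064), POU3F2 (0.16), SOX7 (0.11), TBX1 (0.38), TRIM54 (0.24), CACNG6 (0.62), WNT10A (0.13), WNT11 (0.41), GDF7 (0.46) and GDF6 (0.053). At equal covered length they were ARHGEF16 (0.90), GBX2 (2.78), HOXA11 (0.89), CBX7 (0.17), SDC3 (1.19), MYL4 (1.92) and RPL38 (1.34), and with a 2 kb window PAX3 (0.13). GBX2 (0.999), SDC3 (0.59) and RPL22 (0.51) were also positive under quantile scaling, with no call there or on the full lists. The cause of these shifts was not tested. Promoter sequences were not analysed here. Depth, which is not given, limits how far an unlisted region can be called unmarked.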
